A study of Mus musculus with 108 samples.

Results

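Liver RNA of mice labelled Bmal1-iKO was compared with that of mice labelled Bmal1-flox at zeitgeber time 14 (ZT14, counted in hours from lights on), early in the dark phase, over all expressed genes. The 3 iKO and 3 flox libraries were taken by tissue, genotype and time alone and are 6 of the 108 libraries of the series, which also covers kidney, white adipose tissue (WAT) and 5 other times of day. Both groups were male mice of a strain given as C57BL/J, aged 8 to 12 weeks, kept in 12 h of light and 12 h of darkness with food and water always at hand, and no treatment is named. The labels give the genotypes as Bmal1-iKO and Bmal1-flox, written iKO and flox here, and the title of the series names an intestinal clock and its effect on the liver. The sources used here do not give the driver of the deletion, the cells it reaches or whether flox mice carry it, and intestine was not analysed here. Whether each library is a separate animal is not stated, so the tests rest on the scatter among these samples, part of which may be technical.

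Bmal1 (gene symbol Arntl) is a DNA-binding protein that pairs with Clock and turns on the Per and Cry genes, whose proteins then repress the pair. The nuclear receptors Nr1d1 and Nr1d2 repress Arntl, and the proteins Dbp, Tef and Hlf, which bind D-box sequences, pass the rhythm to output genes. In liver the local clock acts together with feeding. Mice eat mostly in the dark, when insulin raises genes of fatty acid synthesis and lowers genes of the fasting response.

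Levels are given in CPM, the reads of a gene per 1000000 counted reads of its library after scaling between libraries, in the order of replicates 1, 2 and 3. Library totals ran from 17160334 to 18989418 counts in iKO and from 15490434 to 17500229 in flox, and a difference below is iKO minus flox on the log2 scale with its standard error (SE). Arntl, the targeted gene, had 20.0, 11.7 and 15.6 CPM in the iKO libraries, against 21.0, 13.1 and 11.9 CPM in the flox libraries, or 15.8 ± 4.14 CPM in iKO and 15.4 ± 4.96 CPM in flox (SD, n = 3 each). The groups overlapped and the log2 difference was 0.04 (SE 0.43, edgeR, Benjamini-Hochberg adjusted p = 0.967), and a count over the whole gene in liver does not check a deletion elsewhere. Albumin RNA, which marks hepatocytes, made up 6.44% to 7.74% of the counts in iKO and 5.28% to 9.05% in flox (exact permutation test, two-sided, p = 0.8). The smallest p that 3 against 3 libraries can give in such a test is 0.10.

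Libraries iKO 1 and iKO 2 stood apart from the other 4 in several gene groups. Their interferon-stimulated genes averaged 5.60 and 6.15 log2 CPM, against 2.89 in iKO 3 and 3.24, 3.55 and 3.15 in flox, and their mitosis genes averaged 2.59 and 2.32, against -0.42 in iKO 3 and -0.94, -0.97 and -0.75 in flox. Transcripts of the mitochondrial genome made up 3.11%, 3.47% and 16.9% of the counts in iKO and 30.6%, 8.39% and 24.2% in flox. Library iKO 3 stood apart in another way, with the highest mean of fatty acid oxidation genes, 7.36 log2 CPM against 5.77 and 5.16 in iKO 1 and 2 and 5.52, 6.18 and 5.64 in flox. All 6 libraries held reads of the Y-linked gene Ddx3y, 754 to 1191 in iKO and 435 to 683 in flox, while 2 iKO libraries of other times, labelled male, held 0. Levels are therefore given per library for the genes the results turn on, and many differences also without iKO 1 and 2, where 1 iKO library stands for its group and is assumed to vary like the other groups.

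Over 16582 genes tested, edgeR called 0 at a Benjamini-Hochberg adjusted p under 0.05. The lowest adjusted p was 0.0968, for Egr1, and 3293 genes (19.9%) had an unadjusted p under 0.05. DESeq2 called 484 genes, 337 higher in iKO (2.03% of those tested) and 147 lower (0.887%). In 3495 genes (21.1%) the iKO and flox libraries did not overlap, 1667 of them with all 3 iKO libraries above flox (10.1%) and 1828 with all below (11%), and these shares are the background for the counts of members below. Among the 11401 genes at a mean level of 1 log2 CPM or more the shares were 9.84% above and 11.9% below. The median log2 difference of all genes was 0.02. Without iKO 3 edgeR called 1 gene, Egr1. "Called" below is by DESeq2, "above" and "below" mean that the 3 iKO libraries lay on that side of all 3 flox libraries, and no gene named here passed edgeR over all libraries.

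**Figure D1:**
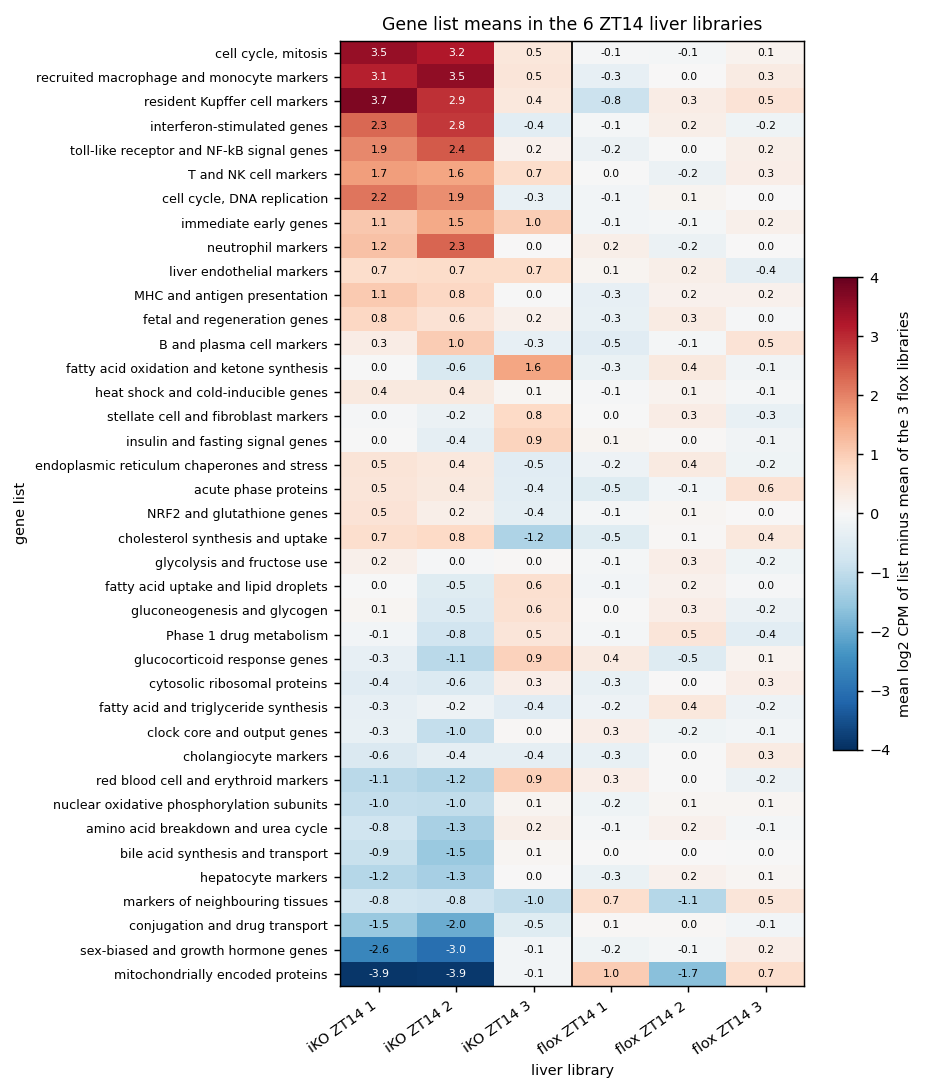
Gene lists (down the page) by ZT14 liver library (across, iKO left of flox); each cell gives the list's mean log2 CPM minus its mean over the 3 flox libraries, red for higher and blue for lower. Mitosis, macrophage and interferon genes are red in iKO 1 and 2, fatty acid oxidation genes are highest in iKO 3, and immediate early genes are red in all 3 iKO libraries.

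Angptl8, Thrsp and Tkfc, of fat and sugar handling, were low in all 3 iKO livers, while Acly and Scd2, of fatty acid synthesis, were high in iKO 1 and 2. Angptl8, an insulin-induced inhibitor of lipoprotein lipase made by the liver (GRCm38 chr9:21835510-21837347, plus strand), had 36.03, 34.1 and 30.6 CPM in the iKO libraries, against 457, 406 and 1002 CPM in the flox libraries. The iKO libraries were close to each other and below flox, with means of 33.6 ± 2.73 CPM in iKO and 622 ± 331 CPM in flox (SD, n = 3 each), and a log2 difference of -4.21 (SE 1.18, edgeR adjusted p = 0.193, DESeq2 adjusted p = 0.00601), and -4.33 without iKO 1 and 2. Thrsp, which promotes lipogenesis, had 64.0, 60.8 and 75.1 CPM in the iKO libraries, against 474, 1261 and 413 CPM in the flox libraries, again with no overlap and a difference of -3.43 (DESeq2 adjusted p = 0.0676, -3.24 without iKO 1 and 2). Tkfc, the triokinase of fructose use, was called lower, at 234, 183 and 130.3 CPM in iKO, against 536, 704 and 474 CPM in flox (log2 difference -1.65, DESeq2 adjusted p = 0.0329, -2.12 without iKO 1 and 2).

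Pklr, Slc2a2, Mlxipl, Fasn and Srebf1, of glucose use and fat synthesis, were named after their values were seen. Pklr, the liver pyruvate kinase, had 16.4, 14.5 and 15.4 CPM in iKO, against 69.8, 218 and 32.1 CPM in flox, and Slc2a2, the glucose transporter of hepatocytes, had 73.3, 41.8 and 94.0 CPM in iKO, against 227, 225 and 131 CPM in flox. Mlxipl, the carbohydrate response factor ChREBP that acts on Pklr, had 52.3, 22.1 and 179.8 CPM in iKO, against 522, 289.6 and 401 CPM in flox. All 3 genes were below, with log2 differences of -2.79, -1.48 and -2.25 (SE 1.17, 0.74 and 1.14) and no call, and -2.78, -1.03 and -1.15 without iKO 1 and 2. Fasn, the fatty acid synthase, had 369, 465 and 88.2 CPM in iKO, against 958, 1650.4 and 651 CPM in flox, and Srebf1, the insulin-responsive regulator of fatty acid synthesis, had 296, 301 and 49.95 CPM in iKO, against 486, 722 and 434 CPM in flox. Both were lowest in iKO 3, and their log2 differences of -1.82 and -1.34 were -3.61 and -3.44 without iKO 1 and 2. The list of fatty acid and triglyceride synthesis had 7 of 27 tested genes below and 0 above (1 called lower, 1 called higher), 17 with a negative and 10 with a positive log2 difference, and a median of -0.18. The median was -0.35 without iKO 1 and 2 and 0.11 without flox 2. The gene called lower was Tkfc and that called higher was Acly, the ATP citrate lyase that supplies acetyl-CoA, with 726, 1717 and 21.5 CPM in iKO, against 68.5, 158 and 91.1 CPM in flox, high in iKO 1 and 2 and lowest of all 6 in iKO 3. Scd2, a stearoyl-CoA desaturase, had 46.6, 53.3 and 4.43 CPM in iKO, against 4.83, 7.71 and 4.52 CPM in flox, so it too was high in iKO 1 and 2.

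Insulin and fasting signal genes were highest in iKO 3, with 5.29, 4.93 and 6.18 log2 CPM in the iKO libraries, against 5.39, 5.34 and 5.15 log2 CPM in the flox libraries, so iKO 1 lay within the flox range and iKO 2 below it. Of 24 tested 5 were above and 2 below, and the list median of 0.47 was 0.78 without iKO 1 and 2 and -0.013 without iKO 3. Some members were above in all 3 iKO livers. Igfbp1, a binding protein of insulin-like growth factors that insulin represses, had 85.5, 12.3 and 331 CPM in the iKO libraries, against 7.24, 12.2 and 3.01 CPM in the flox libraries. Library iKO 3 was highest, while iKO 2 lay just over the highest flox library. Its log2 difference was 4.25 (SE 1.20, edgeR adjusted p = 0.193, DESeq2 adjusted p = 0.00601), and 2.70 without iKO 3. Irs2, an adaptor of the insulin receptor, had 13.5, 17.8 and 35.7 CPM in iKO, against 9.57, 9.75 and 5.74 CPM in flox. Pdk4, a kinase that shuts pyruvate dehydrogenase in fasting, had 15.6, 13.4 and 26.5 CPM in iKO, against 6.24, 7.07 and 5.64 CPM in flox, and Ppargc1a, a coactivator of fasting genes, had 8.64, 8.68 and 13.97 CPM in iKO, against 5.49, 4.91 and 4.61 CPM in flox. These 3, named after their values were seen, were above with log2 differences of 1.41, 1.55 and 1.06 and were not called. Txnip, which limits glucose uptake, had 106, 66.3 and 189 CPM in iKO, against 27.7, 40.8 and 18.7 CPM in flox, and the list's other members named by rule, Sesn1, a stress-induced regulator of mTOR signalling, and Trib1, a pseudokinase, were above by 1.08 and 1.07. Pck2, the mitochondrial PEP carboxykinase, was above by 1.80.

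**Figure D2:**
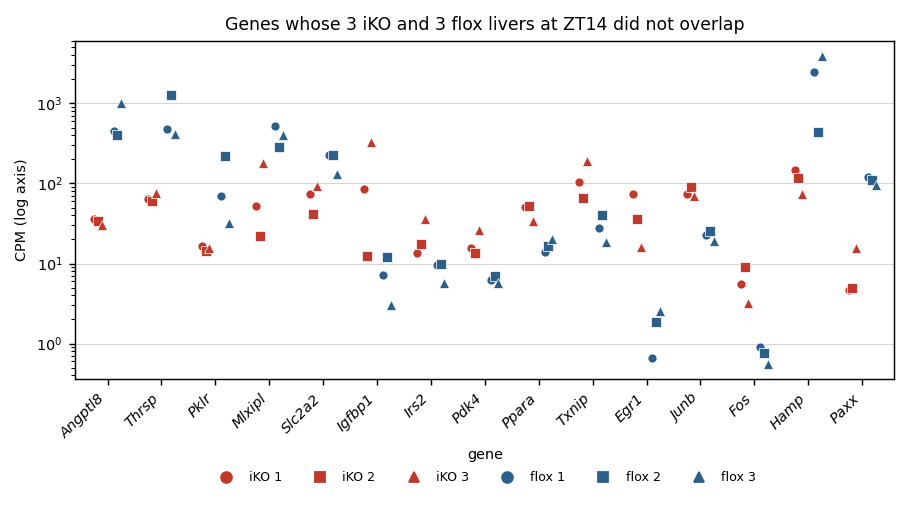
CPM of selected genes in each ZT14 liver library on a log axis, iKO left of flox, 1 point per library. The iKO points of Angptl8 (30.6 to 36.03 CPM) and Thrsp (60.8 to 75.1 CPM) lie below all flox points, and those of Junb (70.6 to 91.0 CPM) lie above.

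Ppara and Lpl were high in all 3 iKO livers, while the lists of fatty acid oxidation and uptake were highest in iKO 3. Ppara, the nuclear receptor that turns on fatty acid oxidation, had 50.7, 52.3 and 33.8 CPM in the iKO libraries, against 14.1, 16.6 and 20.0 CPM in the flox libraries. All iKO libraries were above flox, and the log2 difference of 1.43 (SE 0.44, edgeR adjusted p = 0.193, DESeq2 adjusted p = 0.0471) was 1.01 without iKO 1 and 2. Of 39 tested genes that oxidise fatty acids or make ketones 8 were above and 0 below (2 called, Ppara and Cyp4a14), with a median of 0.44, and 1.155 without iKO 1 and 2 but -0.155 without iKO 3. Crat, the carnitine acetyltransferase, was above by 0.99. Lpl, the lipoprotein lipase that Angptl8 and its partners inhibit, had 108, 161 and 74.5 CPM in the iKO libraries, against 14.8, 35.05 and 13.1 CPM in the flox libraries, with no overlap (log2 difference 2.44, DESeq2 adjusted p = 0.0346, 1.84 without iKO 1 and 2). The list of fatty acid uptake and lipid droplets had 5 of 32 above and 2 below. Its mean was 5.85, 5.40 and 6.52 log2 CPM in the iKO libraries, against 5.75, 6.03 and 5.83 log2 CPM in the flox libraries, and its median of 0.30 was -0.024 without iKO 3. In it Slc27a4, a fatty acid transporter, was above by 0.94 and Plin3, a droplet coat protein, overlapped.

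Ldha, the lactate dehydrogenase subunit, had 1488, 1209.9 and 737 CPM in the iKO libraries, against 291, 645 and 327 CPM in the flox libraries. It was above, and called at a log2 difference of 1.44 (DESeq2 adjusted p = 0.0315), or 0.82 without iKO 1 and 2. Pdp2, a phosphatase that activates pyruvate dehydrogenase, had 24.3, 31.6 and 32.0 CPM in iKO, against 13.2, 15.5 and 18.7 CPM in flox (DESeq2 adjusted p = 0.0471). Hk2, a hexokinase that adult liver mostly lacks, had 20.1, 19.9 and 1.94 CPM in iKO, against 1.17, 2.17 and 0.847 CPM in flox, and Pfkfb3, which makes the activator of phosphofructokinase, had 29.9, 95.4 and 3.81 CPM in iKO, against 2.58, 3.82 and 2.92 CPM in flox. Both were high in iKO 1 and 2 and near flox in iKO 3, with log2 differences of 0.47 and 0.30 without iKO 1 and 2. The 28 genes of glycolysis and fructose use had 4 above and 5 below (4 called higher, 0 lower, median 0.13), so the list had members on both sides. Of 21 genes of gluconeogenesis and glycogen 3 were above and 2 below, with a median of 0.01 (-0.374 without iKO 3). Among them Gyg, the glycogenin that primes glycogen, was called higher (11.7, 13.4 and 6.57 CPM in iKO, against 3.24, 4.14 and 3.58 CPM in flox, DESeq2 adjusted p = 0.0317). Ppp1r3g, a glycogen-targeting subunit that fasting raises, had 1.24, 0.329 and 15.9 CPM in iKO, against 0.0830, 0 and 0 CPM in flox, and since flox held at most 1 read per library no fold is given. Gbe1, the glycogen branching enzyme, overlapped.

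Immediate early genes, which cells switch on within minutes of a stimulus, were high in all 3 iKO livers. Of 24 tested, 10 were above and 0 below, against 10.1% and 11% of all genes, and the median log2 difference was 1.08, and 0.96 without iKO 1 and 2. Egr1, a zinc finger transcription factor, had 73.7, 36.4 and 16.2 CPM in the iKO libraries, against 0.666, 1.85 and 2.54 CPM in the flox libraries. Every iKO library was far above every flox library, with means of 42.1 ± 29.2 CPM in iKO and 1.69 ± 0.948 CPM in flox (SD, n = 3 each). The log2 difference was 4.64 (SE 0.83, edgeR adjusted p = 0.0968, DESeq2 adjusted p = 3.64e-07), 3.28 without iKO 1 and 2 and 3.97 to 5.04 with 1 library left out. Junb, a subunit of the AP-1 factor, had 73.8, 91.0 and 70.6 CPM in the iKO libraries, against 22.96, 25.3 and 19.2 CPM in the flox libraries. Its libraries agreed closely within each group, and it was called (log2 difference 1.80, SE 0.43, DESeq2 adjusted p = 0.00909, 1.66 without iKO 1 and 2). Fos, its partner in AP-1, had 5.48, 8.97 and 3.25 CPM in iKO, against 0.915, 0.765 and 0.564 CPM in flox and was above without a call (DESeq2 adjusted p = 0.0558). Gadd45g, a stress-induced cell cycle inhibitor, had 43.0, 73.1 and 224 CPM in iKO, against 21.0, 49.3 and 20.3 CPM in flox, so the groups overlapped.

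In the clock itself, Per2 and Per3 were low while Arntl, Clock and the Cry genes overlapped. Of 22 clock core and output genes 2 were above and 4 below, 0 were called by either tool, and the median log2 difference was -0.01, and 0.07 without iKO 1 and 2. At an unadjusted p under 0.05 edgeR had 1 of the 22 clock genes higher and 2 lower, against 12.8% and 7.07% of all genes. Per2, a repressor of the Clock and Bmal1 pair (GRCm38 chr1:91415982-91459324, minus strand), had 30.8, 12.8 and 36.9 CPM in the iKO libraries, against 118, 56.5 and 85.3 CPM in the flox libraries. All iKO libraries were below, with a log2 difference of -1.69 (SE 0.69, edgeR adjusted p = 0.201, DESeq2 adjusted p = 0.1, -1.21 without iKO 1 and 2). Per3, its relative, had 8.80, 2.84 and 8.58 CPM in the iKO libraries, against 19.8, 16.6 and 28.1 CPM in the flox libraries, below with a log2 difference of -1.68 (SE 0.70, edgeR adjusted p = 0.209, -1.31 without iKO 1 and 2). Per1 overlapped, at 17.4, 4.11 and 36.8 CPM in iKO, against 26.2, 7.71 and 22.5 CPM in flox. Library iKO 2 had the lowest level of all 3 Per genes.

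Promoters (the 250 bases before the start) came from a RefSeq set of GRCm38.p6, in which 18 of the 22 clock genes were found by symbol. Among these 18 the D-box TTATGTAA, on which Dbp, Tef and Hlf act, was found on either strand in that of Per3 alone. It was in 233 of 27025 promoters of the set (0.86%). The stretch chr4:151044806-151044885 of the minus strand is shown, with both copies in capitals, since no other of these 18 promoters held this spelling in this window. Other spellings of the D-box and other windows were not searched, and a link between the match and the level of Per3 was not tested.
Per3: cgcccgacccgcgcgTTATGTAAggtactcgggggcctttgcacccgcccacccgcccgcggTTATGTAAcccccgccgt
The E-box CACGTG, the site of the Clock and Bmal1 pair, was in 5 of the 18 (27.8%), those of Ciart, Bhlhe41, Cry1, Per1 and Tef, against 6.05% of all promoters. It was also in 6 of 19 promoters of immediate early genes (31.6%) and in 5 of 19 of insulin and fasting signal genes (26.3%), so a like share was found in other lists. A match is a description of the letters and not a bound site.

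Clock had 29.9, 34.3 and 39.6 CPM in iKO, against 43.3, 31.6 and 24.9 CPM in flox, and its stand-in Npas2 had 3.04, 9.67 and 1.94 CPM in iKO, against 5.49, 3.76 and 0.188 CPM in flox, both overlapping like Arntl. Cry1 and Cry2, the other repressors, overlapped with log2 differences of 0.23 and -0.06, and so did Ciart, a further repressor, at -0.86. Nr1d1 was above by 0.53 at low levels (3.36, 2.67 and 3.04 CPM in iKO, against 1.997, 2.10 and 2.16 CPM in flox), while Nr1d2 overlapped (-0.38). Rora, a nuclear receptor that activates Arntl, overlapped (0.07). Bhlhe40, a repressor that competes for E-boxes, was below (46.7, 41.9 and 38.1 CPM in iKO, against 54.9, 85.0 and 55.7 CPM in flox, -0.63), and Bhlhe41 had at most 3 reads in any iKO library. The output factors Dbp, Tef and Hlf overlapped, with -0.87, -1.003 and 0.17, and their opponent Nfil3, which binds the same D-box, had 38.3, 57.0 and 55.3 CPM in iKO, against 28.2, 38.8 and 30.8 CPM in flox. Csnk1d, a kinase that marks Per proteins for decay, was above (76.9, 74.2 and 52.4 CPM in iKO, against 45.9, 46.5 and 43.8 CPM in flox, 0.58), while its relative Csnk1e and the deubiquitinase Usp2 overlapped at 0.13 and -0.93.

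**Figure D3:**
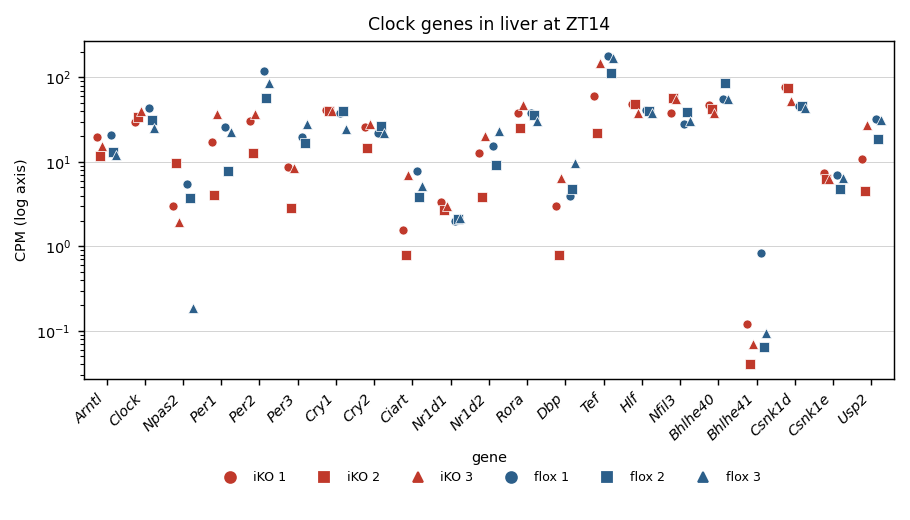
CPM of clock genes in each ZT14 liver library on a log axis, iKO left of flox, 1 point per library. Per2 (12.8 to 36.9 CPM in iKO, 56.5 to 118 CPM in flox) and Per3 are below in all iKO libraries, while Arntl (11.7 to 20.0 CPM in iKO, 11.9 to 21.0 CPM in flox) overlaps.

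Genes that differed by the widest gap included several with no link to the clock or feeding lists. Paxx, a factor of DNA end joining (GRCm38 chr2:25455141-25461094, minus strand), had 4.72, 4.89 and 15.7 CPM in the iKO libraries, against 119, 111 and 95.3 CPM in the flox libraries. Every iKO library was far below every flox library, and the log2 difference was -3.69 (SE 0.75, edgeR adjusted p = 0.193, DESeq2 adjusted p = 3.82e-05, -2.77 without iKO 1 and 2). Clic3, a chloride channel protein, overlaps Paxx on the other strand and was low too (-4.20, DESeq2 adjusted p = 0.00605), and since the strand setting of the counting is not given the reads of such pairs cannot be told apart. Of the 148 genes named in all, 36 overlap another tested gene, among them Angptl8 with Dock6, Junb with Prdx2, Nr1d1 with Thra, Tkfc with Ddb1, Srebf1 with Rai1, Txnip with Gm15441, Per3 with Camta1 and Pklr with Hcn3. Hcn3, an ion channel gene next to Pklr, was below at a log2 difference of -3.96. Apol7a, an apolipoprotein L gene, had 24.2, 16.7 and 27.7 CPM in iKO, against 135, 107 and 176 CPM in flox, and Fam47e had 3.88, 0.946 and 5.19 CPM in iKO, against 20.0, 27.0 and 27.8 CPM in flox, both below and not called.

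Hamp, the hormone hepcidin that lowers iron uptake, had 146, 118 and 73.8 CPM in the iKO libraries, against 2491, 442 and 3902 CPM in the flox libraries. It was below and called (log2 difference -4.34, SE 1.26, DESeq2 adjusted p = 0.00605, -4.93 without iKO 1 and 2), with a wide spread in flox. Lcn2, an iron-binding acute phase protein, had 63.3, 57.1 and 53.5 CPM in iKO, against 147, 161 and 984 CPM in flox, also below and called (DESeq2 adjusted p = 0.0337). Without flox 3, which held the highest level, its log2 difference was -1.40. Of 34 acute phase proteins 6 were above and 4 below, the median was 0.19 (0.08 with a gene at 0 in 1 group set at its bound), and -0.53 without iKO 1 and 2. The median was also negative without iKO 1 alone (-0.134), flox 1 (-0.018) or flox 2 (-0.031). Steap4, an iron reductase of the same list, had 336, 635 and 18.7 CPM in iKO, against 31.8, 57.5 and 24.1 CPM in flox, high in iKO 1 and 2 alone. C4a, a relative of the complement gene C4b that the deposited annotation gives as a long noncoding RNA, had 1.40, 2.26 and 8.58 CPM in iKO. In flox it had 345, 10.9 and 291 CPM (log2 difference -5.74, DESeq2 adjusted p = 0.000893). C4a has a near copy in C4b, as Mup16, Mup18, Nat8, Nat8f5, Gstp2, H2-Q1, H2-Q2, Cyp4a10 and Cyp4a14 have theirs, so how reads were shared between copies is uncertain. The urinary proteins Mup16 and Mup18 and the acetyltransferase genes Nat8 and Nat8f5 were below, with log2 differences of -3.77, -5.60, -5.59 and -4.46, and -2.22, -3.95, -4.30 and -2.79 without iKO 1 and 2.

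Several signalling and adhesion genes were above in all 3 iKO livers. Il1rn, the interleukin 1 receptor antagonist, had 3.56, 6.58 and 6.23 CPM in iKO, against 0.915, 0.956 and 0.941 CPM in flox, called at 2.53 (DESeq2 adjusted p = 0.0207) and 2.74 without iKO 1 and 2. Cyp26b1, which breaks down retinoic acid, had 8.24, 11.1 and 8.58 CPM in iKO, against 0.499, 1.34 and 1.79 CPM in flox (DESeq2 adjusted p = 0.0579, no call, log2 difference 2.94, and 2.84 without iKO 1 and 2). Vcam1, an adhesion molecule of endothelium and Kupffer cells, had 120.1, 30.4 and 36.5 CPM in iKO, against 9.73, 8.73 and 6.21 CPM in flox, and Itga4, a subunit of its receptor, had 26.2, 32.2 and 12.7 CPM in iKO, against 4.24, 2.42 and 4.14 CPM in flox. Their log2 differences of 2.92 and 2.73 were 2.16 and 1.84 without iKO 1 and 2. Tor3a, an ATPase of the endoplasmic reticulum, and Rgs1, a regulator of G protein signals in leukocytes, were above by 2.43 and 2.41, and by 1.83 and 2.36 without iKO 1 and 2.

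Genes of drug conjugation, bile acid and amino acid handling were low, mostly in iKO 1 and 2. Of 38 conjugation and transport genes 15 were below and 0 above, and the list median of -1.03 was -0.50 without iKO 1 and 2. Gstp2, a glutathione transferase, was below at a log2 difference of -2.24, while Ugt1a1, which conjugates bilirubin, and the sulfotransferases Sult2a1 and Sult3a1 were high in iKO 1 and 2. Sult2a1 had 481, 502 and 0.0690 CPM in iKO, against 0.749, 0 and 0.659 CPM in flox. Sult3a1 had 2.999, 3.91 and 0 CPM in iKO, against 0, 0.0640 and 0 CPM in flox, with at most 1 read in any flox library. Of 30 bile acid genes 7 were below and 1 above, and the median of -0.64 was 0.08 without iKO 1 and 2. Nr1h4, the bile acid receptor FXR, had 58.7, 47.1 and 145 CPM in iKO, against 245, 192 and 259 CPM in flox, and Cyp2c70, which makes muricholic acids in mice, had 111, 83.1 and 70.1 CPM in iKO, against 188, 614 and 324 CPM in flox. Both were below without a call, while Abcc4, an export pump, was above and called (6.76, 8.68 and 3.39 CPM in iKO, against 1.497, 1.02 and 0.753 CPM in flox, 2.52, DESeq2 adjusted p = 0.0171), and Slc51a, a subunit of a bile acid exporter, was below at under 1 CPM in every library.

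Of 42 genes that break down amino acids or make urea 10 were below and 0 above, with a median of -0.44, and 0.09 without iKO 1 and 2. Uroc1, the urocanase of histidine breakdown, had 135, 84.2 and 370.5 CPM in iKO, against 611, 561 and 564 CPM in flox. Ftcd, which acts further along that path, and Gls2, the liver glutaminase, were below at a log2 difference of -1.09 and -1.24, while Cps1, the entry enzyme of the urea cycle, was higher but overlapped, at 3987, 7282 and 1943 CPM in iKO, against 1131, 1958 and 1061 CPM in flox. In each of the 3 genes that were below, iKO 3 was the highest iKO library. Of 31 sex-biased and growth hormone genes 10 were below and 0 above (median -1.35, and -0.43 without iKO 1 and 2). The list was not low throughout, with 25 negative and 6 positive log2 differences. Sult2a1, given above, and Cyp2b9 are among the positive ones. Cish, a feedback inhibitor that growth hormone induces through STAT5, had 1.80, 2.02 and 2.70 CPM in iKO, against 7.40, 25.5 and 5.93 CPM in flox, with no overlap. Hsd3b5, a male-biased steroid dehydrogenase named after its values were seen, had 0, 0 and 40.3 CPM in iKO, against 57.1, 106 and 78.9 CPM in flox. Cyp2b9, a female-biased cytochrome P450, had 165, 161 and 1.66 CPM in iKO, against 0.0830, 2.42 and 0.0940 CPM in flox, high in iKO 1 and 2. The reads of Ddx3y given above put all 6 libraries with the male label.

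Interferon-stimulated genes were high in iKO 1 and 2, while the list mean of iKO 3 was below that of every flox library. Of 50 tested, DESeq2 called 14 higher and 0 lower, yet 5 were above and 1 below, shares no greater than the 10.1% and 11% of all genes. Their mean was 5.60, 6.15 and 2.89 log2 CPM in the iKO libraries, against 3.24, 3.55 and 3.15 log2 CPM in the flox libraries. The median log2 difference of 2.15 was -0.56 without iKO 1 and 2. Ifi44, an interferon-induced protein, had 32.2, 58.8 and 1.66 CPM in iKO, against 1.41, 2.10 and 1.79 CPM in flox (log2 difference 4.12, DESeq2 adjusted p = 0.00601, -0.08 without iKO 1 and 2). Isg15, a ubiquitin-like modifier named after its values were seen, had 62.7, 135 and 5.88 CPM in iKO, against 8.90, 16.4 and 15.9 CPM in flox, lowest of all in iKO 3. Gbp3, a guanylate-binding protein, had 52.3, 61.9 and 6.16 CPM in iKO, against 3.74, 5.10 and 8.47 CPM in flox, and overlapped. Trim30a, a restraint on innate signalling, had 54.7, 67.9 and 5.54 CPM in iKO, against 3.41, 1.98 and 2.54 CPM in flox, and Herc6, the ligase that attaches Isg15 in mice, had 22.1, 26.3 and 8.10 CPM in iKO, against 5.24, 6.69 and 5.64 CPM in flox, both above and called (DESeq2 adjusted p = 0.0118 and 0.0253).

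The interferon response element, searched on either strand as TTTC, any 2 bases and TTTC again, is the site of the factor complex that interferon activates. It was in the 250 bases before the start of 20 of the 38 interferon-stimulated genes found by symbol in the promoter set (52.6%), against 821 of 27025 promoters (3.04%). The elements of 3 named genes are shown in capitals, 5′ to 3′ on the gene's strand of GRCm38.p6, at chr3:142559974-142560033 (plus), chr7:104465194-104465253 (minus) and chr4:156200859-156200918 (minus), to show a feature that many genes of the list share.
Gbp3: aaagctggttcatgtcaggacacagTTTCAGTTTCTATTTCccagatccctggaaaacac
Trim30a: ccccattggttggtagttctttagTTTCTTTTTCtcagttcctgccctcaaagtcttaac
Isg15: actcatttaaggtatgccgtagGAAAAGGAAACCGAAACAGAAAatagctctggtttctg
Of the immediate early genes, by contrast, 1 of 19 promoters held the element and 2 (Btg2 and Dusp1) held the cyclic AMP element TGACGTCA, which 1.62% of all promoters hold.

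**Figure D4:**
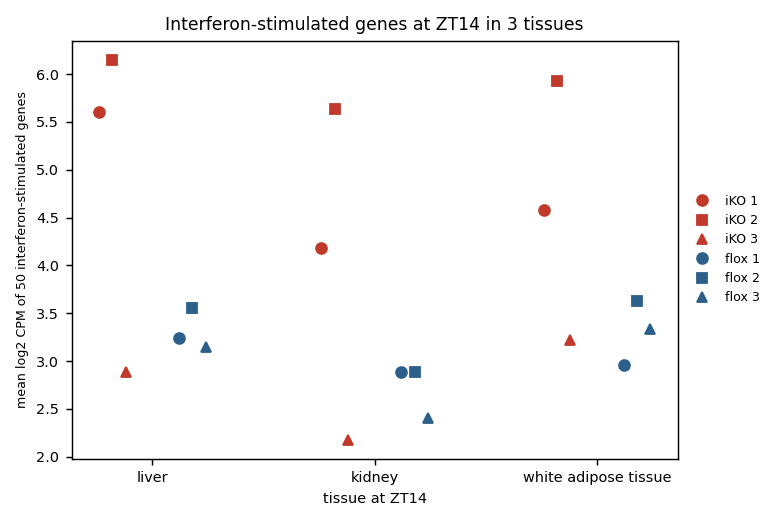
Mean log2 CPM of 50 interferon-stimulated genes in each ZT14 library of liver, kidney and white adipose tissue, iKO left of flox, 1 point per library with its shape for the replicate number. In each tissue iKO 1 and 2 lie highest, at 5.60 and 6.15 in liver, while iKO 3 lies among or below the flox libraries.

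In kidney and WAT at ZT14 the interferon list was split by replicate number as in liver, while the mitosis list was not. The mean of interferon-stimulated genes was 4.18, 5.63 and 2.18 log2 CPM in iKO kidney, against 2.89, 2.89 and 2.40 in flox kidney, and 4.58, 5.93 and 3.22 in iKO WAT, against 2.96, 3.63 and 3.34 in flox WAT. In all 3 tissues replicates 1 and 2 of iKO were highest. Mitosis genes averaged 0.03, 0.50 and 0.51 in iKO kidney, against 0.32, 0.96 and 0.85 in flox kidney, and 3.92, 1.54 and 3.13 in iKO WAT, against 2.02, 3.36 and 0.97 in flox WAT. Kupffer cell markers averaged 1.84, 2.45 and 1.54 in iKO kidney, against 2.08, 1.63 and 1.45 in flox kidney. In WAT they averaged 2.85, 3.55 and 2.28 in iKO, against 1.48, 2.35 and 2.52 in flox, so iKO 1 and 2 were highest there but not in kidney. The labels do not say that a number stands for the same mouse in each tissue. At the other times the liver mean of the interferon list ran from 2.64 to 6.55 in iKO (median 3.74) and from 2.88 to 6.21 in flox (median 3.76). High values were thus found in both genotypes. The 11 liver libraries that stand apart were mostly iKO, however. They were iKO 1 and 2 of ZT6, ZT14 and ZT18, iKO 1, 2 and 3 of ZT22, and flox 1 of ZT6 and of ZT22.

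Genes of innate signalling, antigen presentation and macrophages were high in iKO 1 and 2 at ZT14, and some were also above in iKO 3. Of 35 genes of toll-like receptor and NF-kB signals 12 were above and 1 below (8 called higher, median 1.80, and 0.15 without iKO 1 and 2). Irak3, a brake on toll-like receptor signals, had 16.8, 30.8 and 1.52 CPM in iKO, against 0.416, 0.127 and 1.13 CPM in flox (DESeq2 adjusted p = 0.00295), and Tlr2, a receptor of bacterial lipoproteins, had 15.8, 23.2 and 2.84 CPM in iKO, against 0.998, 1.78 and 1.98 CPM in flox. The inflammasome sensor Nlrp3 had 13.2, 11.6 and 1.18 CPM in iKO, against 0.166, 1.27 and 0 CPM in flox and overlapped. Gsdmd, which forms pores in pyroptosis, was below (32.7, 21.3 and 25.0 CPM in iKO, against 45.01, 37.1 and 57.6 CPM in flox). Of 26 genes of MHC and antigen presentation 5 were above and 3 below (2 called higher, median 0.46, and -0.14 without iKO 1 and 2). H2-Q1, a nonclassical MHC class I gene, had 227, 271 and 11.8 CPM in iKO, against 4.74, 10.01 and 3.10 CPM in flox, and H2-Q2 had 18.1, 86.0 and 1.38 CPM in iKO, against 0.416, 1.34 and 0.376 CPM in flox. The peptide transporter Tap1 and the immunoproteasome subunit Psmb10 overlapped, at 1.35 and -0.66.

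Markers of resident Kupffer cells averaged 8.13, 7.34 and 4.82 log2 CPM in the iKO libraries, against 3.56, 4.71 and 4.95 log2 CPM in the flox libraries, with 5 of 14 above, 0 below and a median of 2.59, and 0.37 without iKO 1 and 2. Adgre1, which encodes the macrophage marker F4/80, had 191, 189.8 and 5.05 CPM in iKO, against 2.16, 5.48 and 6.40 CPM in flox, so it was high in iKO 1 and 2 while iKO 3 overlapped flox. Cd5l, a secreted macrophage protein, had 1036, 1045 and 85.9 CPM in iKO, against 32.3, 78.8 and 82.3 CPM in flox, Csf1r, the receptor macrophages need to survive, had 557, 251 and 71.6 CPM in iKO, against 31.0, 61.9 and 61.0 CPM in flox, and C1qb, a complement subunit, had 523, 219 and 74.2 CPM in iKO, against 20.3, 64.3 and 48.5 CPM in flox, all above. Of 18 markers of recruited macrophages and monocytes 9 were above and 0 below (4 called higher, median 2.78, and 0.56 without iKO 1 and 2), among them Ccr2, the receptor that draws monocytes, with 11.998, 28.1 and 3.46 CPM in iKO, against 1.41, 1.08 and 0.753 CPM in flox. Plac8 and the lectin receptor Clec12a were also above (3.91 and 2.97, and 0.53 and 0.62 without iKO 1 and 2), and the antibody receptor Fcgr1 overlapped (3.90). The leukocyte genes Ms4a6c, Ifi211, Cd300e and Ccl6, a chemokine, were above by 5.49, 5.19, 4.52 and 4.50, all called. Without iKO 1 and 2 these differences were 0.76, 0.89, 1.05 and 1.0. Ms4a6c had 32.8, 38.5 and 0.899 CPM in iKO, against 0.333, 0.446 and 0.847 CPM in flox, so iKO 3 lay just over the highest flox library, and Ccl6 had 125, 204 and 9.89 CPM in iKO, against 3.83, 7.77 and 3.29 CPM in flox. In bulk tissue, more cells of a type and more RNA per cell cannot be told apart.

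Of 21 markers of T and NK cells 13 were above and 1 below (1 called higher, 1 lower), with a mean of 1.53, 1.43 and 0.56 log2 CPM in the iKO libraries, against -0.16, -0.36 and 0.12 log2 CPM in the flox libraries. The list median of 1.51 was 0.87 without iKO 1 and 2. Gzmb, a granzyme of killer cells, had 29.0, 24.4 and 3.18 CPM in iKO, against 0.832, 0.510 and 1.32 CPM in flox, called at 4.43 (DESeq2 adjusted p = 0.0139), and Cd3d, a subunit of the T cell receptor complex, had 1.48, 1.85 and 2.77 CPM in iKO, against 0.333, 0.191 and 0.753 CPM in flox. Gzma, a related granzyme, overlapped (3.43). Zap70, a kinase of T cell receptor signals, went the other way, with 2.88, 2.30 and 8.99 CPM in iKO, against 13.6, 11.5 and 23.3 CPM in flox, called lower. Of 16 liver endothelial markers 6 were above and 0 below (median 0.39, and 0.68 without iKO 1 and 2), among them Cdh5, the cadherin of endothelial junctions (86.3, 82.9 and 16.5 CPM in iKO, against 7.82, 15.2 and 10.4 CPM in flox), Pecam1 (1.79), the scavenger receptor Mrc1 (1.67) and Vwf, the clotting factor carrier, which was highest in iKO 3 (9.52, 10.5 and 23.7 CPM in iKO, against 8.82, 6.95 and 6.40 CPM in flox). Neutrophil markers had 1 of 14 above (median 1.58, and -1.14 without iKO 1 and 2), and of 16 B and plasma cell and 9 red blood cell markers (medians 0.24 and -0.03) 0 were above or below.

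Cell cycle genes were high in iKO 1 and 2. Of 30 mitosis genes 10 were above, 0 below and 7 called higher, and the median of 3.16 was 0.26 without iKO 1 and 2. Top2a, the topoisomerase of dividing cells, had 26.2, 25.3 and 0.830 CPM in iKO, against 0.166, 0.382 and 0.376 CPM in flox. The kinetochore protein Cenpf had 3.84, 2.88 and 0.277 CPM in iKO, against 0, 0 and 0 CPM in flox, and the checkpoint kinase Bub1b had 7.68, 5.59 and 0.761 CPM in iKO, against 0.166, 0.127 and 0 CPM in flox. No fold is given for these last, since no flox library held more than 2 reads. Cdca8, of the passenger complex, overlapped (2.57). Of 36 DNA replication genes 5 were above and 2 below (6 called higher, median 1.27, and -0.40 without iKO 1 and 2). The helicase subunit Mcm4 was above (14.7, 15.1 and 2.42 CPM in iKO, against 0.582, 2.10 and 0.659 CPM in flox), while its partner Mcm5 and the ligase Lig1 overlapped (4.66 and 2.62).

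Genes of cholesterol synthesis were lowest in iKO 3, while iKO 1 and 2 lay just over the highest flox library. Their mean was 6.87, 6.97 and 4.96 log2 CPM in the iKO libraries, against 5.71, 6.24 and 6.61 log2 CPM in the flox libraries. Of 24 tested 0 were above or below. The median of -0.03 was -1.31 without iKO 1 and 2 and 0.295 without iKO 3. Idi1, the isopentenyl isomerase, had 123, 257 and 2.08 CPM in iKO, against 3.33, 7.77 and 8.94 CPM in flox. It was far above flox in iKO 1 and 2 and lowest of all in iKO 3, so the called log2 difference of 4.25 (DESeq2 adjusted p = 0.00401) became -1.67 without iKO 1 and 2. Cyp51 and Pmvk of the same path overlapped at 1.02 and 0.89. Amigo2, an adhesion protein, had 981, 1603 and 13.6 CPM in iKO, against 7.82, 3.44 and 6.68 CPM in flox. It was above with a log2 difference of 7.18 (DESeq2 adjusted p = 0.00174), which was 1.21 without iKO 1 and 2. Grhl1, a transcription factor of epithelia, had 31.3, 92.4 and 1.25 CPM in iKO, against 0.915, 0.701 and 0.376 CPM in flox.

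Library iKO 3 carried the highest levels of several genes that Ppara drives in fasting. Cyp4a14, a fatty acid hydroxylase, had 188, 152 and 2835 CPM in the iKO libraries, against 11.1, 139 and 10.3 CPM in the flox libraries. It was above in all, but iKO 1 and 2 were near flox 2, and without iKO 3 the log2 difference of 4.30 (DESeq2 adjusted p = 0.0192) was 1.67. Cyp4a10 had 90.2, 43.7 and 2501 CPM in iKO, against 107, 126 and 61.9 CPM in flox, and its log2 difference of 3.16 was -0.55 without iKO 3. Fgf21, the fasting hormone of the liver, Acot1, a thioesterase, and Cpt1a, the gate of mitochondrial oxidation, were named after their values were seen. Fgf21 had 0, 0 and 37.0 CPM in iKO, against 1.41, 2.74 and 1.03 CPM in flox, and Acot1 had 1.64, 1.15 and 145 CPM in iKO, against 12.8, 23.8 and 4.89 CPM in flox. Cpt1a had 112, 56.1 and 337 CPM in iKO, against 87.0, 111 and 131 CPM in flox. In Cyp4a10 and these 3 genes iKO 3 was highest, while iKO 1 and 2 lay within or below flox.

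The difference at ZT14 was then set against the mean difference at the other 5 times. edgeR called 0 genes (lowest adjusted p 0.554). An unadjusted p under 0.05 was reached by 1312 genes (7.91%), and 22 genes (0.133%) passed DESeq2, 11 with a more positive and 11 with a more negative difference at ZT14. edgeR also called 0 without the 2 iKO libraries that lack Ddx3y reads. Egr1 had a ZT14 difference that was 4.20 log2 units more positive (DESeq2 adjusted p = 0.000414). At ZT2 it had 17.0, 20.6 and 15.0 CPM in iKO, against 32.0, 82.8 and 46.2 CPM in flox, the opposite order with no overlap. Over ZT2 to ZT22 its group means were 17.5, 13.8, 3.27, 42.1, 21.0 and 37.4 CPM in iKO and 53.7, 7.94, 5.75, 1.69, 2.66 and 20.1 CPM in flox, so flox was lowest at ZT14 when iKO was highest.

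Paxx was -2.90 more negative at ZT14 (DESeq2 adjusted p = 0.0418), where flox peaked. Its means over the 6 times were 37.0, 11.1, 17.96, 8.44, 10.9 and 11.1 CPM in iKO and 31.4, 11.8, 25.2, 108, 59.7 and 25.2 CPM in flox. Id3, an inhibitor of helix-loop-helix transcription factors, had 71.1, 95.2 and 58.2 CPM in iKO, against 144, 165 and 205 CPM in flox at ZT14, below, with a difference -1.82 from the other times (DESeq2 adjusted p = 0.00601). Its means were 69.4, 62.9, 71.0, 74.8, 120.0 and 118 CPM in iKO and 38.0, 42.0, 77.6, 171, 75.4 and 54.0 CPM in flox, so the flox peak at ZT14 had no match in iKO, where ZT18 and ZT22 were highest. Mrto4, a factor of ribosome assembly, had 16.2, 16.7 and 16.7 CPM in iKO, against 22.9, 28.5 and 27.3 CPM in flox at ZT14, with tight groups and a log2 difference of -0.67 (SE 0.16, DESeq2 adjusted p = 0.00744), -0.64 without iKO 1 and 2, and a contrast with the other times of -0.76 (DESeq2 adjusted p = 0.0098). Hamp was also called in this contrast (-4.44, DESeq2 adjusted p = 0.0418).

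Further genes with the smallest p in this contrast were Mknk2, a kinase of the translation factor eIF4E, with 248, 341 and 177 CPM in iKO, against 91.1, 80.3 and 112 CPM in flox at ZT14, and Bcl7c, a subunit of the SWI/SNF remodeller, with 14.4, 14.8 and 26.2 CPM in iKO, against 46.1, 50.9 and 71.1 CPM in flox. Neither passed DESeq2 for the contrast (adjusted p = 0.126 and 0.127), although both were called at ZT14 itself. The same held for Ptgfrn (1.75), the sorting nexin Snx10 (1.32) and the ubiquitin ligase Rnf6 (0.64). Irx1, a homeobox gene, had 0.120, 0 and 0 CPM in iKO, against 2.83, 0.255 and 1.60 CPM in flox, at most 3 reads in any iKO library, and was called in the contrast (DESeq2 adjusted p = 0.00705). Thrsp was not called in it (-0.51, DESeq2 adjusted p = 0.885). Its means over the 6 times were 89.4, 86.7, 371, 66.6, 22.4 and 80.3 CPM in iKO and 627, 790.4, 1256, 716, 921 and 223 CPM in flox, lower in iKO at every time. The lowest Thrsp values of flox, 6.25 and 1.85 CPM, were in replicate 1 of ZT6 and of ZT22, which are among the 11 liver libraries with high mitosis genes.

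**Figure D5:**
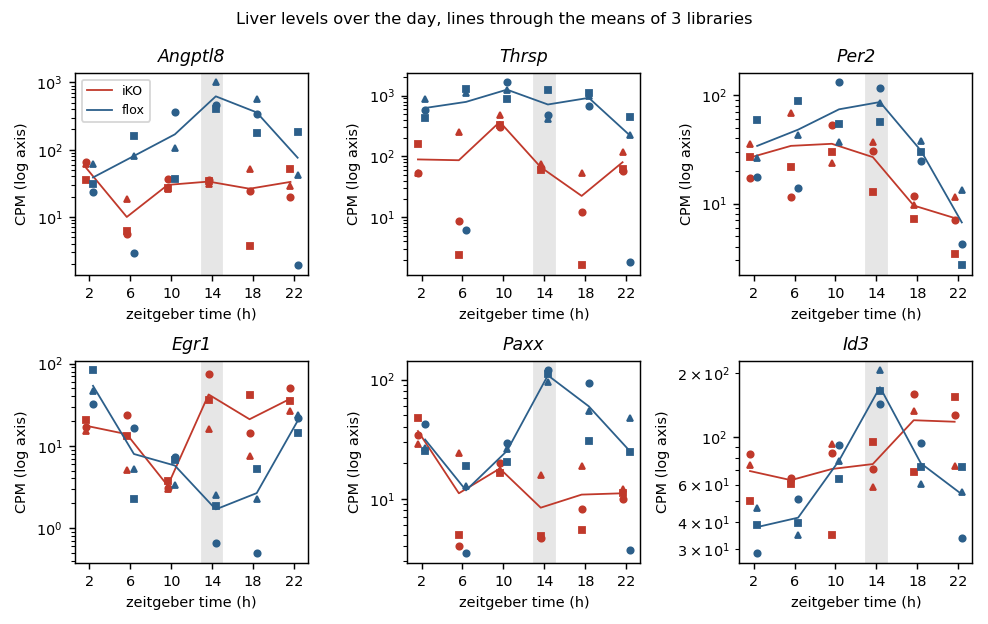
CPM of genes in liver at ZT2, 6, 10, 14, 18 and 22, with 1 point per library and lines through the group means, iKO listed before flox. The iKO mean of Thrsp lies below the flox mean at all 6 times, at ZT14 with 66.6 CPM in iKO against 716 CPM in flox, and Egr1 has its highest iKO mean there, 42.1 CPM, against the lowest flox mean, 1.69 CPM.

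The remaining lists are given by their counts and medians. Of 37 Phase 1 drug metabolism genes 1 was above and 3 below (median -0.21, and -1.149 without iKO 3), of 21 NRF2 and glutathione genes 0 and 4 (-0.07), of 17 glucocorticoid response genes 1 and 1 (0.12, and -0.864 without iKO 3), of 20 heat shock genes 2 and 1 (0.33) and of 29 genes of endoplasmic reticulum stress 1 and 3 (0.20). Of 50 cytosolic ribosomal proteins 1 was above and 0 below (-0.19), of 56 nuclear subunits of oxidative phosphorylation 1 and 3 (-0.54), and of 13 mitochondrially encoded proteins 0 and 0 (-1.77, and -0.47 without iKO 1 and 2). Fetal and regeneration genes had 4 of 17 above and 4 below, or 8 without overlap against 21.1% of all genes (0.65, or 0.57 with a gene at 0 in 1 group set at its bound, and 0.00 without iKO 1 and 2). Hepatocyte markers had 0 of 19 above and 3 below (-0.49, and -0.08 without iKO 1 and 2), and Alb, named after its values were seen, overlapped with a log2 difference of -0.39. Cholangiocyte markers had 0 of 12 above and 4 below, against 11% of all genes (-0.60, and -0.48 without iKO 1 and 2). Stellate cell and fibroblast markers had 3 of 19 above and 0 below (0.10), and markers of neighbouring tissues 0 of 6 above and 2 below (-1.89, and -1.48 without iKO 1 and 2). The part that other cell types or the depth of mitochondrial reads had in any of these differences was not tested.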

How the data were processed

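Messenger RNA of liver, kidney and white adipose tissue was sequenced with reads of 150 bp, per the labels' protocols from Trizol RNA and a NEBNext Ultra library kit. The authors deposited 1 table of raw read counts for 55416 genes in 108 libraries, of which 1492 genes have no symbol. The submitters' processing notes name HISAT2 2.0.4, featureCounts 1.5.0-p3, DESeq2 1.16.1 and GRCm38 (mm10), with no settings and no strand. The table's own coordinates match those of GRCm38 for 1494 of 52083 gene identifiers, so positions printed here come from GENCODE vM21 (GRCm38), matched by gene identifier, and promoters from RefSeq.

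Depth of the 6 libraries was 15490434 to 18989418 counts, which limits precision for genes of a few reads. No fold is given where all 3 libraries of a group held at most 3 reads each. Fits that leave libraries out were not checked against this floor. Replicates of a group differed by more than sampling noise (chi-square per degree of freedom 63.11 to 520.37). The 36 liver libraries were filtered with filterByExpr, scaled by TMM and fitted in edgeR 4.0.16 (quasi-likelihood, robust, R 4.3.3) with 1 mean per genotype and time. The contrast was iKO minus flox at ZT14, and a second one set it against the mean of the other 5 times. P-values were adjusted by Benjamini and Hochberg over 16582 genes and called under 0.05. Log2 CPM used a prior count of 2. The common biological coefficient of variation, the relative spread between replicates, was 0.514. On simulated counts the fit recovered 6% of genes changed 2-fold and 52% of those changed 4-fold at ZT14 over 15960 genes. Each simulated gene had 1 level at all times, the spread fitted for genes of its level, and the same change in all 3 iKO libraries. The real iKO libraries differed among themselves, so these shares may not hold for them.

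The 39 lists (28 of pathways, 11 of cell types, 1041 entries, 1017 tested) and the alternatives were chosen with earlier results of these data known. Named are all clock genes, and the 10 largest differences and 10 widest gaps each way among genes without overlap at a mean level of 1 log2 CPM or more. The largest differences also needed an unadjusted edgeR p under 0.05. Also named are up to 4 genes per list with the smallest p and up to 10 genes with the smallest p for ZT14 against the other times. A further 14 genes were chosen after their values were seen. Predicted genes, clone names and pseudogenes were passed over in the rules by difference, gap and contrast with other times. Some genes that fall under these rules are not reported here, though the counts over lists and over all genes hold them. The alternatives were DESeq2 1.42.0, its size factors, no filter, the ZT14 libraries alone, the replicate number as a block, each library left out, and fits without libraries that stand apart. Leaving out the iKO libraries without Ddx3y reads, and leaving out libraries in the count of genes without overlap, were added after the data were seen.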

Additional observations from a re-analysis of the deposited data

Results flagged for a closer look

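Of 92 named genes without overlap at ZT14 and at a mean level of 1 log2 CPM or more, 22 lay the opposite way, also without overlap, at another time of day in liver. How many of all genes do the same was not counted. Each gene had 5 other times at which libraries might separate, so 22 cannot be read as more than background. The pairs of times were not tested against each other. In the following, a value is the log2 difference of iKO minus flox at ZT14. Higher at ZT14 and lower at ZT2 were Egr1 (4.64), Ccl6 (4.5), Il1rn (2.53), Csf1r (2.52), C1qb (2.61), Plac8 (3.91), Ccr2 (3.74), Gzmb (4.43), Mknk2 (1.43), Ptgfrn (1.58) and Rnf6 (0.47). Mknk2 was also lower at ZT10, and Rnf6 also at ZT6 and ZT18. Higher at ZT14 and lower at ZT10 were Abcc4 (2.52), Herc6 (1.68) and Mrc1 (1.67), and Nr1d1 (0.53) and Vwf (0.98) were lower at ZT22. Lower at ZT14 and higher at ZT2 were Hamp (-4.34), Nr1h4 (-1.47), Mrto4 (-0.67) and Id3 (-1.19), Id3 also at ZT6 and ZT22. Mup16 (-3.77) was higher at ZT22 and Hsd3b5 (-2.60) at ZT10. Against the mean of all other times, DESeq2 called Egr1, Hamp, Id3 and Mrto4 of these 22.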

How the results depend on the processing

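The count of edgeR calls at ZT14 stayed 0 with size factors, no filter, the ZT14 libraries alone (13684 genes), the replicate number as a block, and without iKO 1 and 2 or the libraries lacking Ddx3y reads. DESeq2 called 484, leaving out the 11 libraries that stand apart gave 121 (86 higher, 35 lower), and leaving out 1 library gave 0 to 1. The contrast with the other times gave 22 in DESeq2 and 0 in every other fit. Genes without overlap numbered 3495, from 3976 to 10341 with 1 library left out (6068 without flox 2, 10341 without iKO 3), and 8273 without iKO 1 and 2; fewer libraries overlap less by construction. Correlations of deviations between libraries of the same replicate number were -0.193, 0.210 and 0.061. Those of different numbers ran from -0.251 to 0.213, so these values do not show a pairing, and with so few libraries they cannot exclude one. The replicate number as a block gave 0 calls and changed no sign. The median of all genes ran from -0.045 to 0.049. Of 142 named genes with enough reads for a fold, 122 kept their sign in all fits other than those leaving out 1 library, and 113 in all fits.

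Without iKO 1 and 2, and without the 11 libraries, the following log2 differences had the other sign, and the cause was not tested: Npas2 -0.69 and -0.70, Cry2 0.25 and 0.25, Ciart 0.35 and 0.36, Nr1d2 0.36 and 0.37, Dbp 0.08 and 0.09, Hlf -0.05 and -0.04, Usp2 0.03 and 0.04, Acly -2.28 and -2.29, Scd2 -0.35 and -0.36, Idi1 -1.67 and -1.67, Pmvk -0.71 and -0.71, Plin3 -0.14 and -0.14, Gbe1 -0.57 and -0.58, Ugt1a1 -0.52 and -0.53, Sult2a1 -2.55 and -2.56, Steap4 -1.0 and -1.01, Ifi44 -0.08 and -0.08, Tap1 -0.17 and -0.17, Lig1 -0.39 and -0.38, Isg15 -1.21 and -1.21. With 1 library left out, signs crossed 0 for Arntl (-0.17 to 0.33), Clock (-0.11 to 0.29), Npas2 (-0.33 to 1.28), Per1 (-0.80 to 0.53), Cry2 (-0.22 to 0.19), Nr1d2 (-0.94 to 0.05), Rora (-0.13 to 0.29), Csnk1e (-0.01 to 0.25), Cyp4a10 (-0.55 to 3.73), Cpt1a (-0.38 to 1.04), Fgf21 (-8.07 to 3.4) and Acot1 (-3.30 to 2.48). List medians moved by more than the spread between replicates for 21 of 39 lists without iKO 1 and 2, for 22 without the 11 libraries and for 8 without iKO 3. Depth limits genes of a few reads, and the floor for giving a fold was applied only with all 6 libraries in place. Without iKO 3, Fgf21 had 0 reads in iKO, so the size of -8.07 is not a measured fold. Without iKO 1 and 2, Sult2a1 had 1 read in iKO, so the same holds for -2.55 and -2.56.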
